A study of Mus musculus with 52 samples.

Results

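Chemosensory receptor promoters were examined as regions of closed chromatin in mouse embryonic stem cells (mESCs). The members were the deposited promoter rows whose RefSeq identifier belongs to an odorant receptor gene (Olfr), a trace amine-associated receptor gene (Taar), a taste receptor gene (Tas1r, Tas2r) or a vomeronasal receptor gene (Vmn1r, Vmn2r). They were chosen by gene symbol alone, and there were 554 of them among 20633 promoters: 465 Olfr, 33 Tas2r, 35 Vmn1r, 12 Vmn2r, 6 Taar and 3 Tas1r. Each row was a 400 bp interval around an annotated transcript start. Receptor genes outside these rows were not analysed here.

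Chemosensory receptors are G protein-coupled receptors that detect odorants, pheromones and tastants. An olfactory sensory neuron transcribes a single odorant receptor allele out of a very large gene family, while the remaining genes are held in heterochromatin. Most odorant receptor genes lie in large clusters that are poor in GC and in CpG islands. Odorant receptors divide into class I, which resemble the receptors of fish, and class II, which are specific to land vertebrates. Vmn1r and Vmn2r genes encode pheromone receptors of the vomeronasal organ, Tas1r genes the sweet and umami receptors, and Tas2r genes the bitter receptors. None of these genes has a known sensory role in mESCs.

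Calibrated ATAC-seq (cATAC-seq) gave the accessibility values. In this assay the Tn5 transposase inserts adapters into open DNA and Drosophila SG4 cells added to each sample serve as the scale. Of 52 samples, the 26 ATAC libraries were used, from 4 conditional lines named Kdm2a/b-JmjC, Kdm2a/b-CXXC and, for a single gene each, Kdm2a-CXXC and Kdm2b-CXXC. Untreated (UNT) and treated (TAM) cells alike carry loxP-flanked (fl/fl) alleles and a tamoxifen-inducible CRE recombinase expressed from Rosa26, and TAM cells received 800 nM 4-hydroxytamoxifen for 96 h. In Kdm2a/b-JmjC cells the treatment deletes the exons of Kdm2a and Kdm2b that encode JmjC, the histone demethylase domain. In the CXXC lines it deletes the exon for the ZF-CxxC domain, the part of the protein that recognises CpG islands, in both genes or in the named gene. There were 4 UNT and 4 TAM libraries in Kdm2a/b-CXXC and 3 of each in the other lines, described as biological replicates. No line with CRE but without loxP sites was included, so an effect of the drug or the recombinase cannot be told apart from that of the deletion. Kdm2a-CXXC and Kdm2a/b-CXXC were made by genome editing and isolated as clones, the latter from Kdm2b-CXXC cells, whereas Kdm2a/b-JmjC cells were derived from mice.

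The libraries held between 1488370 and 3025358 promoter reads each. Promoters of pluripotency genes varied in level. Sox2 had a mean of 106 and Tfcp2l1 116 reads per 1000000 promoter reads (RPM). Pou5f1 had 36.7, Tdgf1 37.7 and a promoter of Esrrb 26.3 RPM, below the median of 41.2 RPM of all promoters outside the receptor families. Of the 10 listed ESC markers 9 had a row, and Dppa5a had none. Of the 10 promoters found for them, 9 lay above every chemosensory receptor promoter. The exception was an alternative promoter of Esrrb at 5.43 RPM.

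The DNA of the receptor promoters was poor in GC and CpG. Their median GC content was 38.3% and their median number of CpG dinucleotides 2 per interval, against 60.5% and 25 for the other 20079 promoters. No receptor promoter was CpG-rich, defined as a GC content of at least 50% with CpG at 0.6 or more of the number that the base content predicts, while 11262 of the other promoters were. CpG was absent from 80 of the 554 intervals, and 9 intervals held 10 or more. The upstream 200 bases of 9 intervals are shown because CpG is the sequence that the ZF-CxxC domain recognises. They are the 4 members with the highest level and the members nearest the median level of 5 families. Sequences are from RefSeq (GRCm38.p6, the same build as the mm10 files), which matched 468 of 554 symbols, and they run 5′ to 3′ up to the base before the annotated start. CpG dinucleotides are in capitals. Apart from Tas1r1 and Tas1r3, the annotated start of these members is the coding start, so their bases lie upstream of the first codon and not of a mapped transcription start.
Olfr95, chr17:37211852-37212051, minus strand: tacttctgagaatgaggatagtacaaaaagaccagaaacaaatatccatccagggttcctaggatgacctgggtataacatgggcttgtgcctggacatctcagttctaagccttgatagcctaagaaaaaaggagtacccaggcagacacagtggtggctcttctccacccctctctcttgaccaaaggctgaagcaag
Olfr94, chr17:37197967-37198166, minus strand: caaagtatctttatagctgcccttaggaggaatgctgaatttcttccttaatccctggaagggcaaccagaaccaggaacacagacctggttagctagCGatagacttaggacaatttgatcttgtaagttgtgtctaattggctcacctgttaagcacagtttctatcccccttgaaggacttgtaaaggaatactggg
Olfr222, chr11:59571739-59571938, minus strand: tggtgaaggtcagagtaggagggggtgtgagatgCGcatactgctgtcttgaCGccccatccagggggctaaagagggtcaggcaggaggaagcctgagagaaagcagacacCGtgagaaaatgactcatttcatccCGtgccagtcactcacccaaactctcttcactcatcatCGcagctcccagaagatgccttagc
Tas1r1, chr4:152038491-152038690, minus strand: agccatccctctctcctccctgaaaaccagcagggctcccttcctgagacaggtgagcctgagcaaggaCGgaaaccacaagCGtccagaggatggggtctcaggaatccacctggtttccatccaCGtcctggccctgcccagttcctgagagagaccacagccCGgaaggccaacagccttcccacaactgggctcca
Olfr1264, chr2:90022065-90022264, minus strand: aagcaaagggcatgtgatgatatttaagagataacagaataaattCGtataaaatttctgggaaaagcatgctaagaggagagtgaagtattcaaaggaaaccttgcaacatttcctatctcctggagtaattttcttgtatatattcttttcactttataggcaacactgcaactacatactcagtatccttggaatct
Taar5, chr10:23970506-23970705, plus strand: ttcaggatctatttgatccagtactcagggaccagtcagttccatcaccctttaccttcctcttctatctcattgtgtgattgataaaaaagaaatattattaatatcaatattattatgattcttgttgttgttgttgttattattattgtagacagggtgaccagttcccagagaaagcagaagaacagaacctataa
Tas1r3, chr4:155863354-155863553, minus strand: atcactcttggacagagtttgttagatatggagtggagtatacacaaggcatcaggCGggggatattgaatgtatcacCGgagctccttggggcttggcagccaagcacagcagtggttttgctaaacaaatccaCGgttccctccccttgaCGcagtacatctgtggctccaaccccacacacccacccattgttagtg
Tas2r131, chr6:132957845-132958044, minus strand: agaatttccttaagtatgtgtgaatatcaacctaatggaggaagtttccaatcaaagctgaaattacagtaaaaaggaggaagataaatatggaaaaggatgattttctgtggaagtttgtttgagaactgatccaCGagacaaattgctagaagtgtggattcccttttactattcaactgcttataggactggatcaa
Vmn2r90, chr17:17703741-17703940, plus strand: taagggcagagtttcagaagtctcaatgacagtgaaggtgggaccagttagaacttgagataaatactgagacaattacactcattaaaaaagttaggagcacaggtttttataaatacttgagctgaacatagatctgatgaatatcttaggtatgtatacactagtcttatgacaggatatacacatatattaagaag
In these upstream 200 bases, Olfr95, Taar5 and Vmn2r90 held no CpG, and Olfr94, Olfr1264 and Tas2r131 held 1. Tas1r1 and Tas1r3, both subunits of taste receptors, held 4 each, and Olfr222 held 5.

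Sequence motifs of odorant receptor promoters were counted in the 400 bp intervals on both strands. CCCNNGGG, a core recognised by the EBF (Olf/EBF) factors, occurred in 26 receptor intervals (4.69%), in 23.5% of all 20630 promoters with sequence and in 4.32% of the other promoters under 45% GC. The homeodomain-like letters TAATTA occurred in 18.4% of receptor intervals, 3.92% of all promoters and 15.1% of the other promoters under 45% GC. TAATGA occurred in 36.6%, 7.79% and 25.3% of the same sets. TATAAA occurred in 36.1%, 10.4% and 35.2%. The members holding CCCNNGGG had a median level of 3.27 RPM and those without it 2.80 RPM. The AT-rich motifs went the other way, with 2.67 against 2.84 RPM for TAATTA, 2.64 against 2.93 for TAATGA and 2.57 against 3.03 for TATAAA. The sets were not matched in GC content. Of the 1552 other promoters under 45% GC, 1068 lay between 40% and 45%, against 139 of the 554 members. The part of GC content in the differences of motif share and of level was not tested.

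The receptor promoters carried few reads in every library. The median receptor promoter had between 3 and 9 reads per library, against 60 to 114 for the other promoters and 12 to 21 for the other promoters that are not CpG-rich. The receptor median was the lowest of the 3 in 26 of 26 libraries. Summed over all 554 members, receptor promoters took between 0.143% and 0.201% of the promoter reads of a library, with a median of 0.171%. Their mean read number was between 5.18% and 7.32% of the mean of the other promoters.

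**Figure D1:**
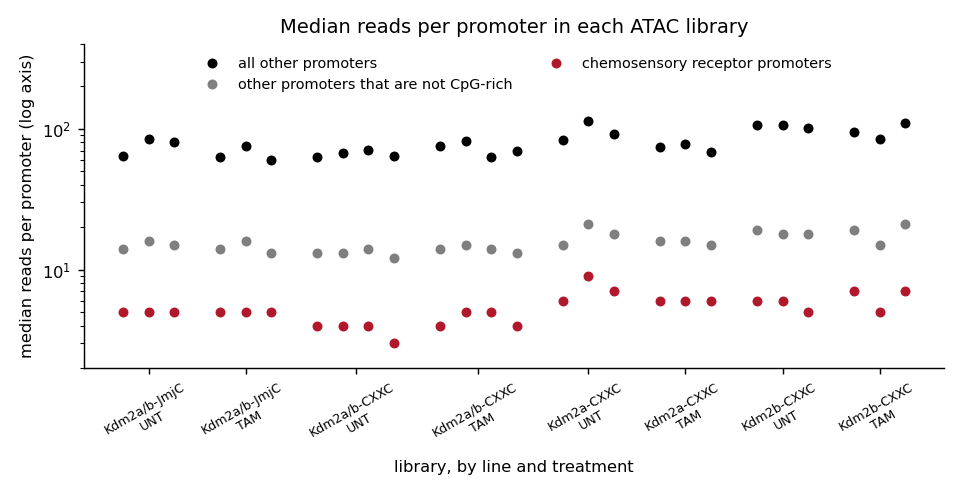
Median reads per promoter (log axis) in each of the 26 ATAC libraries, by line and treatment, for chemosensory receptor promoters, all other promoters and other promoters that are not CpG-rich. Each point is a library, and the receptor points lie between 3 and 9 reads, below both other sets in all 26 libraries.

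In untreated cells the share of promoter reads on receptor promoters was 0.177% ± 0.019 (SD, n = 3) for Kdm2a/b-JmjC, 0.169% ± 0.020 (n = 4) for Kdm2a/b-CXXC, 0.170% ± 0.014 (n = 3) for Kdm2a-CXXC and 0.144% ± 0.0019 (n = 3) for Kdm2b-CXXC. The untreated Kdm2b-CXXC libraries lay closest together and were all below the untreated libraries of Kdm2a/b-JmjC and Kdm2a-CXXC. The median reads per receptor promoter were 6.65% ± 1.02, 5.66% ± 0.71, 7.58% ± 0.33 and 5.39% ± 0.42 of the median of the other promoters, in the same order of lines. Against the other promoters that are not CpG-rich, the same ratio was 33.4% ± 2.23, 28.8% ± 2.72, 40.6% ± 2.05 and 30.9% ± 2.84. Each line has its own calibration, and shares of reads within a library were therefore the only levels set side by side across lines.

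Reads were nonetheless present at nearly every receptor promoter. Between 0 and 75 of the 554 members were at 0 reads in a library, which is 0% to 13.5%, against 0.154% to 1.31% of the other promoters. Over all 26 libraries every member had reads, and the 5 lowest members had mean levels between 0.952 and 1.18 RPM. The median over members was 2.82 RPM, with quartiles of 2.20 and 3.48, against medians of 41.2 RPM for the other promoters, 7.67 RPM for those that are not CpG-rich and 69.7 RPM for those that are CpG-rich. Of the 554 members, 438 (79.1%) were in the lowest 10% of all promoters. No member reached the median of the other promoters, 84 exceeded their 10th percentile, and 8 exceeded the median of the other promoters that are not CpG-rich.

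**Figure D2:**
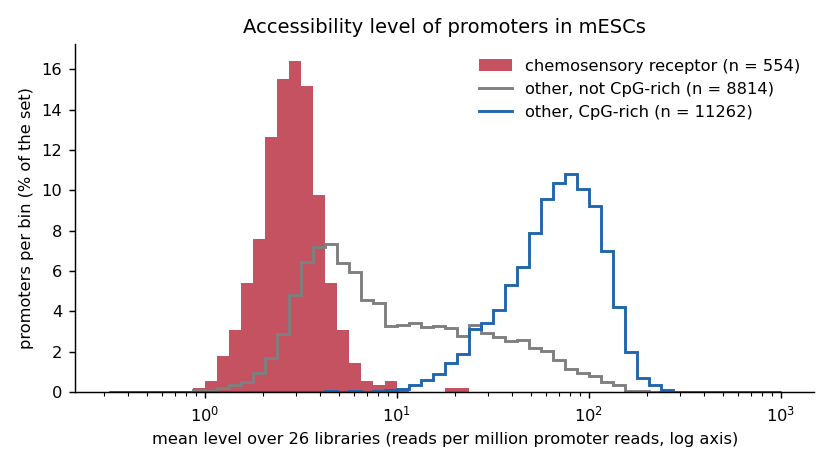
Distribution of the mean level over 26 libraries (RPM, log axis) for the 554 chemosensory receptor promoters and for other promoters that are CpG-rich or not, as the percent of each set per bin. The receptor promoters form a single narrow peak around 2.82, at the lower edge of the other promoters that are not CpG-rich.

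The level of a receptor promoter followed its GC content. The 124 members under 35% GC had a median of 2.05 RPM, the 210 between 35% and 40% had 2.74, the 139 between 40% and 45% had 3.24, the 55 between 45% and 50% had 4.11, the 18 between 50% and 55% had 4.74, and the 8 at 55% or more had 6.20. Across the 554 members Spearman's rho between level and GC was 0.70, a description of points that share the same libraries. The number of CpG followed level less closely (rho 0.41). In the lowest bins, other promoters of like GC had nearly the same medians, 2.05 RPM under 35% (n = 107) and 2.77 RPM between 35% and 40% (n = 377). The sets parted as GC rose: between 50% and 55% the other promoters that are not CpG-rich had a median of 7.35 RPM, and at 55% or more 19.5 RPM. The part of base composition in the level was not tested.

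**Figure D3:**
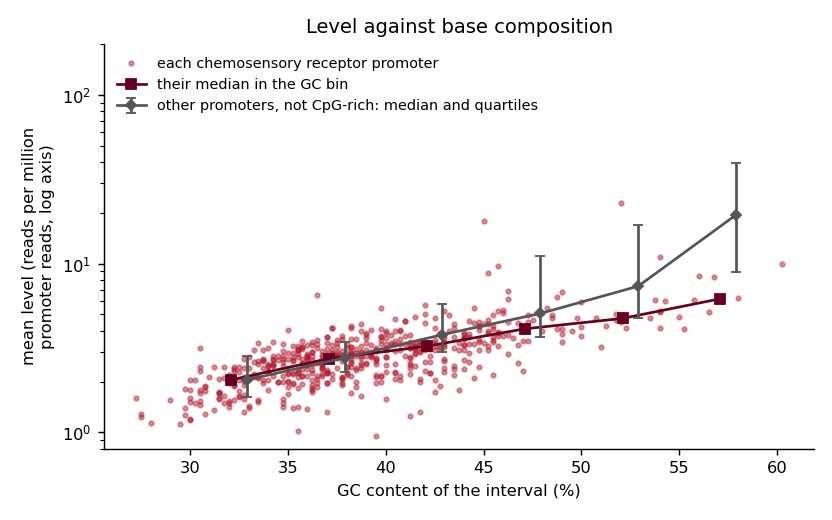
Mean level (RPM, log axis) of each of the 554 receptor promoters against the GC content of its interval, with the median in bins of GC, beside the median and quartiles of other promoters that are not CpG-rich. The last bin holds all intervals at 55% or more, and the medians lie together at 2.05 in the lowest bin and apart at 6.20 and 19.5 in the highest.

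By receptor family, the odorant receptors had a median of 2.83 RPM, close to the Tas2r bitter receptors at 2.93 and the Vmn2r pheromone receptors at 2.73. The Vmn1r pheromone receptors were lower at 2.01 RPM, with a median GC content of 34.8%. The Taar amine receptors stood at 3.48 RPM (median GC 44.9%) and the 3 Tas1r sweet and umami receptors at 6.08 RPM (56.5%), so the order of the families from Vmn1r to Tas1r was close to their order in GC. The interquartile ranges of Olfr (2.21 to 3.5), Tas2r (2.43 to 3.44) and Vmn2r (2.39 to 3.08) overlapped. That of Vmn1r (1.64 to 2.56) lay below that of Taar (3.09 to 4.01), and the lower quartile of Tas1r, 5.63 RPM, lay above the upper quartiles of the other families. Class I odorant receptors had a median of 3.32 RPM (n = 65) and class II 2.75 RPM (n = 389), with 41.5% and 38.3% GC.

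The annotation left the true start unknown for many members. In 382 of 554 (69.0%) the annotated transcript began at the coding start, against 0.727% of the other promoters with both positions, so these intervals were centred on the first codon and not on a mapped transcription start. Their median level was 2.83 RPM, the same as that of the 163 members with the transcript start upstream of the coding start. 

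Receptor promoters lie in arrays. With gaps of up to 1 Mb, the members formed 62 groups along the genome, 18 of which held 10 or more and 444 members in all. The largest, of 102 Olfr intervals on chromosome 2 (85414678 to 90142493, from Olfr993 to Olfr32), had a median of 2.31 RPM and no member above 4.16 RPM. The next, 67 members on chromosome 7 (102477703 to 105368527), which includes the class I cluster, had a median of 3.31 RPM. The medians of the large groups ranged from 1.61 RPM in the Vmn1r66 to Vmn1r87 array of chromosome 7 (median GC 32.8%) to 4.78 RPM in the Olfr20 to Olfr412 array of chromosome 11 (median GC 42.5%). Members far from other genes were lower: the median was 2.57 RPM for the 353 members more than 100 kb from the interval of a gene outside the families, 3.25 RPM for the 157 between 20 and 100 kb, and 3.90 RPM for the 39 between 5 and 20 kb. GC content moved with this distance, with medians of 36.8%, 42.5% and 42.3%, and its part in the trend was not tested.

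The 6 members on the X chromosome were the lowest chromosome set, with a median of 1.32 RPM at a median GC of 40.1%. They ranged from 0.952 to 2.04 RPM, and the 2 lowest of all 554 members were among them. The other 717 promoters of the X chromosome had a median of 20.3 RPM, against 41.2 RPM for all other promoters. On chromosome 1, the 14 members took 4.09% ± 0.53 of all receptor reads for Kdm2a/b-JmjC and 4.37% ± 0.22 for Kdm2a-CXXC (SD, n = 6 libraries each), against 3.25% ± 0.53 in Kdm2a/b-CXXC (n = 8) and 3.23% ± 0.31 in Kdm2b-CXXC (n = 6). The other promoters of chromosome 1 moved with them, at 7.79%, 7.23%, 5.52% and 5.58% of reads in the same order. All 6 Kdm2a-CXXC libraries (3.98% to 4.61%) lay above all Kdm2b-CXXC libraries (2.78% to 3.69%), while the Kdm2a/b-JmjC libraries (3.23% to 4.69%) overlapped with both of the lower lines. The part of the other chromosome 1 promoters' shift in that of the receptors was not tested.

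A small number of receptor promoters stood above this background. Olfr95 and Olfr94, class II odorant receptors at an end of an array of 11 members on chromosome 17, were the highest members. The interval of Olfr95 (chromosome 17, 37211652 to 37212051) had a lowest, median and highest level of 14.9, 22.6 and 35 RPM over the 26 libraries and that of Olfr94 (37197767 to 37198166) 7.74, 18.1 and 29.4 RPM. Both were thus above 2.82 RPM, the receptor median, in every library, and the mean of Olfr95 was 8.07 times that median. Olfr95 was the highest member in 19 of 26 libraries and among the 10 highest in all 26, and Olfr94 was among the 10 highest in 25. Their mean levels of 22.8 and 17.8 RPM fell at percentiles 37.7 and 34.0 of all promoters. The nearest interval of a gene outside the families was that of Ubd, which encodes a ubiquitin-like protein, at 17960 bp from Olfr95 and 4075 bp from Olfr94. As shown in the sequences, Olfr95 had no CpG and Olfr94 1 CpG in the upstream 200 bases, and each held 7 in the whole interval.

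**Figure D4:**
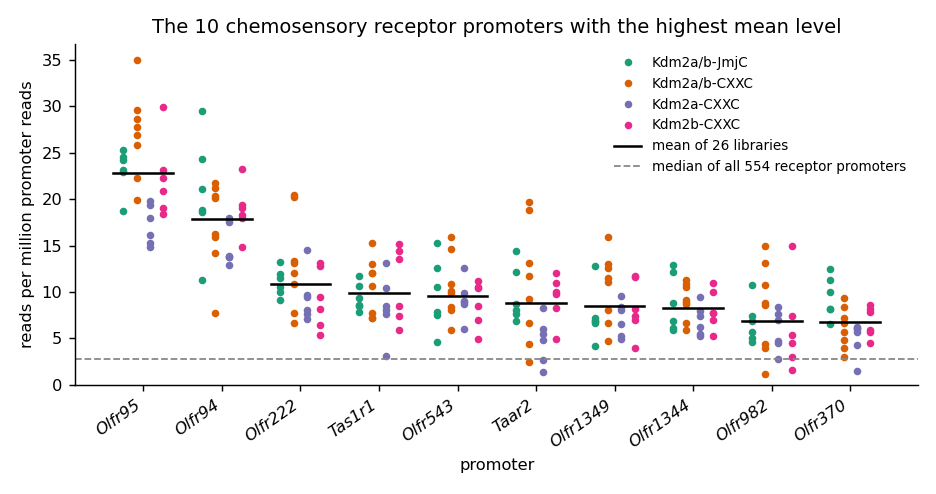
Level (RPM) of the 10 receptor promoters with the highest mean in each of the 26 libraries, coloured by line, with the mean as a line and the median of all 554 members as a dashed line. Every library of Olfr95 and Olfr94 lies above the dashed line at 2.82, whereas Taar2, Olfr982 and Olfr370 have libraries below it.

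The other 8 of the 10 highest members were spread over 6 chromosomes. Olfr222, an odorant receptor on chromosome 11 (59571539 to 59571938) near Nlrp3, had 5.40, 10.3 and 20.5 RPM as its lowest, median and highest library. Tas1r1, a subunit of the umami receptor (chromosome 4, 152038291 to 152038690), had 3.14, 8.99 and 15.3 RPM, and its interval lies 830 bp from that of Nol9. It was 1 of 2 members within 1 kb of another gene's interval. The other, Olfr13, lies 871 bp from its neighbour and had only 1.96 RPM. Olfr543, a class I receptor (chromosome 7, 102477703 to 102478102), had 4.58, 9.47 and 15.9 RPM. Taar2, an amine receptor (chromosome 10, 23938372 to 23938771), had 1.42, 8.28 and 19.8 RPM, a range wider in ratio than that of any other of the 10. Olfr1349 (8.5 RPM on average), Olfr1344 (8.28), Olfr982 (6.86) and Olfr370 (6.79) completed the set. The GC content of the 10 lay between 45% and 60.3%, above the receptor median in each case.

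Of 21 well-known receptors listed by name, 15 had a row. Of these, 13 lay above the receptor median of 2.82 RPM and 10 above the upper quartile of all members, 3.48 RPM, and Tas1r1 was among the 10 highest members. Olfr1507, whose choice is controlled by a distant enhancer, had a mean of 2.57 RPM, and Olfr17 and Olfr2, receptors long used to study receptor choice and ligand binding, had 3.19 and 3.5 RPM. Olfr73, a eugenol receptor, had 2.59 RPM. Olfr16, also used in sperm, had 4.09 RPM. Olfr78, a receptor expressed in the carotid body, had 4.30 RPM, and Olfr544, a receptor of azelaic acid, 4.84 RPM. Among amine receptors, Taar1 had 3.29, Taar4 4.13 and Taar5, the trimethylamine receptor, 3.67 RPM. The taste receptors Tas1r2 and Tas1r3 had 5.18 and 6.08 RPM and Tas2r108 3.77 RPM. Vmn2r1 had 3.41 RPM. Apart from the 3 Tas1r genes and Olfr544, all of these lay between 2.57 and 4.30 RPM. Olfr16, Olfr73, Taar1, Taar4 and Taar5 each had a library at 0, and the ranges of all of these over the 26 libraries overlapped, so neighbours in this order did not differ beyond their spread.

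Signalling partners and regulators of receptor genes were mostly more accessible than the receptor promoters. All 30 listed genes had rows, 33 promoters in all, with a median of 32.0 RPM, and 19 of the 33 were above the highest receptor promoter. That median was below the 41.2 RPM of all promoters outside the families. Of the 33, 17 were CpG-rich, whereas no receptor promoter was, and the part of base composition in the contrast was not tested. Gnal, the olfactory G protein, had 53.3 RPM at 1 promoter and 26.6 RPM at the other, and Adcy3, the olfactory adenylyl cyclase, had 40.7 RPM. Of the regulators of receptor choice, Lhx2 had 29.7 and 55.1 RPM at its promoters, Ldb1 65.8 and 76.8, Kdm1a, a lysine demethylase, 79.4 and Lbr, the lamin B receptor, 102 RPM. Signalling genes of the sensory cells varied widely. Gng8, a G protein gamma subunit, had 64.6 RPM and Itpr3, a calcium channel used in taste cells, 52.8, both above every receptor promoter. Gng13, another gamma subunit, had 20.1 and Ano2, the olfactory chloride channel, 17.4 RPM, both below Olfr95. Cnga2, the olfactory channel subunit, had 2.37 RPM, Gnat3, the taste G protein, 3.00, Rtp1 and Rtp2, which carry receptors to the cell surface, 4.27 and 4.57, and Omp, a marker of mature olfactory neurons, 10.3 RPM. Cnga2 was the only 1 of the 33 below the receptor median of 2.82 RPM.

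Repeated libraries ranked the receptor promoters only loosely. Across members, Spearman's rho between the levels of any pair of the 26 libraries was between 0.13 and 0.41 (median 0.26, 325 pairs), against 0.95 to 0.98 for the other promoters. After averaging within a line, rho between lines was between 0.60 and 0.67. These are descriptions over 554 members that share depth and base composition. The variance of reads among replicates of a group, relative to that of pure counting, averaged between 1.70 and 1.87 over members. Values of 2 reads were found 1587 times and values of 1 read 746 times, and 0 reads 741 times. Values of 4 reads, found 1758 times, also exceeded those of 3 reads (1366) and 5 reads (1395). Single values thus varied more than counts of independent reads would. The libraries were sequenced as paired ends, and whether both mates of a fragment were counted was not tested. Olfr1212, a member close to the receptor median, had 19 reads in the UNT libraries of Kdm2a/b-JmjC together (exact 95% Poisson interval 11.4 to 29.7) and 9 in the TAM libraries (4.12 to 17.1). In Kdm2a/b-CXXC it had 22 (13.8 to 33.3) and 30 (20.2 to 42.8). In Kdm2a-CXXC it had 16 (9.15 to 26) and 23 (14.6 to 34.5). In Kdm2b-CXXC it had 16 (9.15 to 26) and 5 (1.62 to 11.7). The UNT and TAM intervals overlapped in each line, though such overlap does not show that the groups were alike. The counts were summed reads, scaled neither for depth nor for spike-in. The intervals cover counting error only, with reads taken as independent, and are too narrow where mates were counted apart.

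With libraries taken as unpaired, the summed level of the receptor promoters differed between UNT and TAM libraries by less than the SD between libraries of a group in each line. In Kdm2a/b-JmjC the mean calibrated reads per receptor promoter were 6.36, 5.35 and 5.85 in UNT and 5.88, 4.58 and 5.38 in TAM libraries. The groups overlapped, and the summed level differed by -0.15 on the log2 scale (SD between libraries 0.16). In Kdm2a/b-CXXC the UNT libraries had 5.09, 4.61, 4.94 and 3.81 and the TAM libraries 5.79, 4.65, 5.36 and 3.62, a log2 difference of 0.07 (SD 0.25). In Kdm2a-CXXC the values were 5.93, 7.36 and 8.07 in UNT and 5.43, 6.82 and 8.46 in TAM, a log2 difference of -0.05 (SD 0.28). In Kdm2b-CXXC they were 7.80, 4.49 and 5.45 in UNT and 10.4, 5.30 and 6.25 in TAM, a log2 difference of 0.31 (SD 0.46). The last was the largest difference of the 4 lines and came with the widest spread. Paired by replicate number, a choice made after seeing the data, the log2 ratios were lower in 3 of 3 for Kdm2a/b-JmjC (mean -0.15, SD 0.062). They were higher in 3 of 3 for Kdm2b-CXXC (mean 0.29, SD 0.12). In those lines the mean thus exceeded the SD of the ratios. It did not for Kdm2a/b-CXXC (mean 0.06, SD 0.12) and Kdm2a-CXXC (mean -0.06, SD 0.11).

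**Figure D5:**
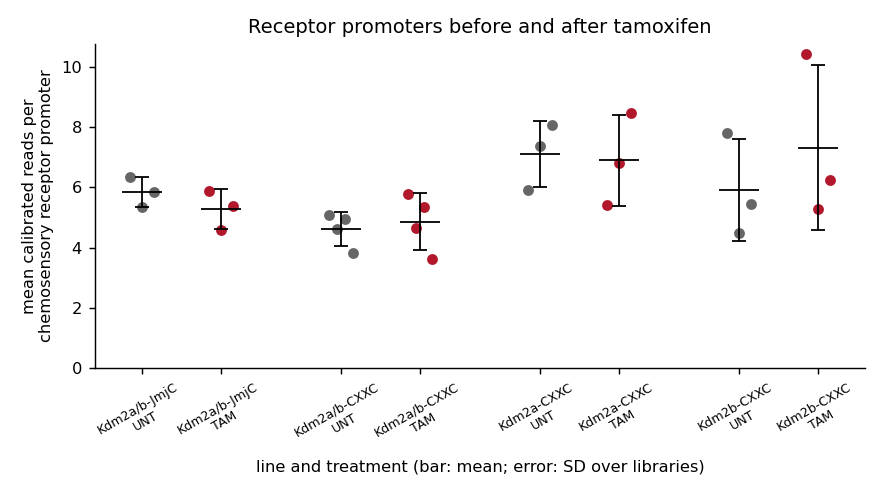
Mean calibrated reads per chemosensory receptor promoter in each library (points), with the mean and SD of each group, by line and treatment. Treated and untreated libraries overlap in all 4 lines, and the spread is widest in Kdm2b-CXXC.

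The median log2 fold change over all 554 members, from group means with 1 added, was -0.12 for Kdm2a/b-JmjC, 0.08 for Kdm2a/b-CXXC, -0.05 for Kdm2a-CXXC and 0.29 for Kdm2b-CXXC, against -0.20, 0.10, -0.16 and 0.11 over all promoters. With TMM scaling, which sets the bulk of promoters to no change, the receptor medians were 0.05, -0.02, 0.09 and 0.17, and the sign turned in every line but Kdm2b-CXXC. The other promoters under 45% GC had medians of 0.09, 0.03, 0.12 and 0.08 on that scale. The share of promoter reads on receptor promoters was 0.146%, 0.143% and 0.143% in UNT and 0.181%, 0.148% and 0.164% in TAM libraries of Kdm2b-CXXC, groups that did not overlap. In the other 3 lines the shares of UNT and TAM libraries overlapped. Fewer cells with a given promoter open and less accessibility per cell cannot be told apart in these bulk samples.

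No receptor promoter passed the test in any line. After the filter on low reads, 44 members remained for Kdm2a/b-JmjC, 19 for Kdm2a/b-CXXC, 97 for Kdm2a-CXXC and 83 for Kdm2b-CXXC. None had a limma adjusted p under 0.05 with a fold change over 1.4, against 0.0757%, 0%, 0% and 0% of all promoters tested. At an unadjusted p under 0.05 there were 4, 1, 4 and 5 of them (9.09%, 5.26%, 4.12% and 6.02%), against 20.6%, 4.65%, 8.39% and 0.669% of all promoters tested. edgeR's quasi-likelihood test also called 0 members in each line, with 4, 1, 2 and 4 at an unadjusted p under 0.05. Over all promoters tested, 3586 of 17174, 778 of 16413, 1465 of 17727 and 102 of 17930 were under it. DESeq2 gave no adjusted p to any of the 44 members in Kdm2a/b-JmjC, so it could call none there, and it called 0 in the other lines. Its unadjusted counts were 2, 1, 1 and 3, against 2571, 740, 1193 and 104 over the same sets of all promoters tested. In Kdm2b-CXXC the unadjusted count was higher under other settings of limma, at 9 of 83 with TMM or median-of-ratios scaling and 15 of 141 without UNT replicate 1. The count over all promoters tested rose as well, from 120 of 17930 to 1396 with TMM and 1405 with median-of-ratios scaling. Without UNT replicate 1 it was 488 of 18512. The members that passed the filter were those with the most reads, and their median standard error of the log2 fold change was still between 0.43 and 0.62, against 0.19 to 0.37 over all promoters tested.

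With every promoter tested, so that all 554 members had a value, limma again called 0 in each line. In Kdm2a/b-JmjC, 3 members were higher and 16 lower at an unadjusted p under 0.05 (0.542% and 2.89%), against 0.383% and 16.9% of all promoters. In Kdm2a/b-CXXC, 14 were higher and 6 lower, against 3.76% and 1.11% of all promoters. In Kdm2a-CXXC, 8 were higher and 12 lower, against 0.577% and 7.03%. In Kdm2b-CXXC, 18 were higher (3.25%) and 2 lower, against 1.05% and 0.179%. The number of members past this unadjusted threshold was thus 19 or 20 in each line, out of 554.

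The members with the smallest p in each line had few reads. They were picked by p among members that passed the filter on low reads, which a promoter can pass through the libraries of a single group. Both steps favour separated groups, so the separation and fold changes below are descriptions of picked members. In Kdm2a/b-JmjC, Olfr15, an odorant receptor on chromosome 16 (3838775 to 3839174), had 13.6, 13.6 and 15.6 calibrated reads in UNT and 5.34, 3.91 and 2.05 in TAM libraries. All treated libraries were below all untreated ones, and the log2 fold change was -1.74 ± 0.58 (SE) at a limma adjusted p of 0.0973. Olfr549, a class I receptor on chromosome 7 (102554086 to 102554485), had 12.4, 12.7 and 24.7 in UNT and 3.2, 3.13 and 14.3 in TAM libraries. Its groups overlapped, and the log2 fold change was -1.38 ± 0.52 (SE) at a limma adjusted p of 0.13.

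In Kdm2a/b-CXXC, Olfr222 had 17.8, 16.9, 12.2 and 9.68 calibrated reads in UNT and 41.7, 22.1, 30.3 and 17.7 in TAM libraries, a log2 difference of 0.90 ± 0.33 (SE) at a limma adjusted p of 0.996. The lowest treated library fell just within the untreated range. Tas1r3, the subunit shared by the sweet and umami receptors, had 0.988, 11, 4.69 and 12.6 in UNT and 12.4, 13.6, 13.7 and 5.62 in TAM libraries, with overlapping groups. Its log2 difference of 0.84 at a limma adjusted p of 0.996 became 0.27 without UNT replicate 1.

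In Kdm2a-CXXC, Vmn1r1, a pheromone receptor on chromosome 1 (182157899 to 182158298), had 0.955, 8.38 and 14.2 calibrated reads in UNT and 15.7, 14.5 and 17.8 in TAM libraries, a log2 difference of 1.38 ± 0.55 (SE) at a limma adjusted p of 0.581. The groups did not overlap, and the lowest untreated library, UNT replicate 1, held 1 read. Without that library the log2 difference was 0.51. Olfr731 on chromosome 14 (50238684 to 50239083) had 6.69, 15.2 and 15.2 in UNT and 2.62, 10.6 and 1.27 in TAM libraries, with overlapping groups and the same adjusted p. Its log2 difference of -1.47 became -0.96 without TAM replicate 3.

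In Kdm2b-CXXC, Olfr676, a class I receptor on chromosome 7 (105035000 to 105035399), had 5.76, 1.42 and 3.51 calibrated reads in UNT and 19.5, 12.8 and 9.80 in TAM libraries, a log2 difference of 1.79 ± 0.72 (SE) at a limma adjusted p of 1. Olfr225 on chromosome 11 (59612766 to 59613165) had 8.07, 2.12 and 5.27 in UNT and 20.9, 9.86 and 18.0 in TAM libraries, a log2 difference of 1.56 ± 0.65 (SE) at a limma adjusted p of 1. At both promoters every treated library was above every untreated one, and neither passed the correction over all promoters. Their recovered reads were 5, 2 and 4 in UNT and 14, 13 and 12 in TAM for Olfr676. For Olfr225 they were 7, 3 and 6 in UNT and 15, 10 and 22 in TAM. Both thus passed the filter through their treated libraries, and the separation is in part a product of that selection.

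The highest members were also followed across lines. Olfr95 had means of 41.1 ± 7.09 and 38 ± 3.6 calibrated reads in UNT and TAM libraries of Kdm2a/b-JmjC (SD, n = 3 and n = 3), and the log2 fold change was -0.10 ± 0.27 (SE) at a limma adjusted p of 0.849. In the CXXC lines its log2 fold changes were -0.16 ± 0.25 for Kdm2a/b-CXXC, -0.11 ± 0.29 for Kdm2a-CXXC and -0.11 ± 0.38 for Kdm2b-CXXC. Those of Olfr94 were -0.30, -0.35, -0.13 and 0.13, with standard errors between 0.29 and 0.39. Olfr222 had -0.33 in Kdm2a/b-JmjC, -0.50 in Kdm2a-CXXC and 0.87 in Kdm2b-CXXC, none past the test. Among the signalling partners and regulators, 0 of the 29, 27, 28 and 31 promoters tested were called in the 4 lines by limma. An unadjusted p under 0.05 was found for 6, 1, 0 and 0 of them, against 20.6%, 4.65%, 8.39% and 0.669% of all promoters tested.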

How the data were processed

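Per the methods and the submitters' processing notes, the authors aligned reads with Bowtie2 to mm10 joined with the Drosophila dm6 genome, removed reads that mapped more than once and, with SAMtools, PCR duplicates, and counted reads over promoters. Each library column that the authors deposited is a signal: reads per promoter divided by a DESeq2 size factor from the Drosophila reads, corrected by the spike-in ratio of matched genomic DNA. Whole reads were recovered from the step between low values, with size factors between 0.718 and 1.41, and in each library 100% of values came out whole within 0.01. The deposited base mean, fold change, standard error, statistic and p-value columns hold the authors' own comparisons and were not used.

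Symbols came from RefSeq, with GENCODE for 7 members. The members, lists and tests were chosen with earlier results of these data known. Changes were tested within each line with limma 3.58.1 (mean-variance trend, two-sided, no block) on log2(calibrated reads + 1), which understates changes of low promoters, after filterByExpr of edgeR 4.0.16, with Benjamini-Hochberg adjustment. edgeR and DESeq2 1.42.0 on the recovered reads, other scalings, pseudocounts, no filter and leaving out each library were alternatives. The limma fit was tried on simulated data, with changes planted only at promoters with more reads than a typical receptor promoter. Its power at receptor promoters was therefore not tested. Named members were the 10 with the highest mean level, the member nearest each family median, the 2 with the smallest p per line where none was called, and well-known receptors. Olfr13 and Olfr1212 were named after their values were seen. Duplicates were removed without molecular identifiers. Markers of neurons, primitive endoderm and olfactory sensory neurons had median levels of 50.9, 28.9 and 18.5 reads per 1000000 promoter reads, with 0 promoters called by limma. The 26 genomic DNA samples were not analysed here, 2 of them with labels that conflict.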

Additional observations from a re-analysis of the deposited data

Results flagged for a closer look

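In groups of 4 libraries, a value was marked where its gap to the nearest other library, divided by the range of the group, exceeded Dixon's 95% critical value. Of 78 groups examined 5 were marked. Chance marks about 1 in 20 where values are continuous and normally distributed. Calibrated reads of single receptor promoters are few whole reads divided by a size factor, so ties are common. The rate of chance marks among them was not tested. All 5 were in Kdm2a/b-CXXC, the line with 4 libraries per group. At Olfr2, an odorant receptor, the UNT libraries had 1.98, 1.99, 1.87 and 5.81 calibrated reads, with the last set apart (gap ratio 0.97). At Olfr73, the eugenol receptor, they had 1.98, 1.99, 1.87 and 3.87 (gap ratio 0.941). At both promoters the remaining libraries were nearly tied at few reads, so any other read number would give a high gap ratio. The share of promoter reads on receptor promoters in TAM libraries was 0.158%, 0.154%, 0.198% and 0.151%, with replicate 3 set apart (gap ratio 0.859). At Tas1r3 the TAM libraries had 12.4, 13.6, 13.7 and 5.62 calibrated reads, with the last set apart (gap ratio 0.838). At Olfr549 they had 10.1, 2.55, 1.96 and 3.21, with the first set apart (gap ratio 0.847).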

How the results depend on the processing

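Of 312 alternative values, 304 stayed within the spread between libraries or on the same side of the threshold. For the summed change this spread, of unpaired libraries, was wider than the change itself in each line, so a turned sign could still count as within it. No receptor promoter was called in any line under any alternative run, though DESeq2 gave the 44 members of Kdm2a/b-JmjC no adjusted p. For Kdm2a/b-JmjC the summed log2 change was 0.0508 with TMM and 0.0533 with median-of-ratios scaling, and the median log2 fold change 0.0546 and 0.0572, because both scalings remove the shift of all promoters. Against other promoters that are not CpG-rich, the untreated median ratio was 33.4%, 28.8%, 40.6% and 30.9% in the 4 lines. Leaving out a library gave summed log2 changes of -0.23 to -0.06, -0.02 to 0.19, -0.22 to 0.10 and -0.03 to 0.56. The sign turned without UNT replicate 4 (-0.01) or TAM replicate 1 (-0.02) of Kdm2a/b-CXXC, without UNT replicate 3 (0.05) or TAM replicate 1 (0.10) of Kdm2a-CXXC, and without TAM replicate 1 of Kdm2b-CXXC (-0.03). Same-numbered libraries had deviations correlated at -0.0090 to 0.073 over tested promoters. Of the libraries, 6 of 6, 4 of 8, 4 of 6 and 2 of 6 correlated best with their own number. Such a correlation cannot show a level shared by all promoters of same-numbered libraries. A replicate block lowered the median standard error over all promoters tested from 0.37 to 0.16 in Kdm2b-CXXC and from 0.21 to 0.17 in Kdm2a-CXXC. It left this error at 0.19 in Kdm2a/b-JmjC and moved it from 0.20 to 0.21 in Kdm2a/b-CXXC. With a replicate block, limma called 0 receptor promoters in each line and 62, 0, 188 and 5 of all promoters. At an unadjusted p under 0.05 there were 4, 1, 4 and 11 receptor promoters (9.09%, 5.26%, 4.12% and 13.3% of those tested). Over all promoters tested there were 3544 of 17174, 733 of 16413, 3895 of 17727 and 1785 of 17930. The block on the summed change, chosen after seeing the data, gave -0.15, 0.06, -0.06 and 0.29, with SDs over same-numbered ratios of 0.062, 0.12, 0.11 and 0.12. These ratios were lower in 3 of 3 for Kdm2a/b-JmjC (-0.22 to -0.11), higher in 3 of 4 for Kdm2a/b-CXXC, lower in 2 of 3 for Kdm2a-CXXC and higher in 3 of 3 for Kdm2b-CXXC (0.20 to 0.42). At 3 to 9 reads per typical receptor promoter and library, changes of single promoters were not detectable unless large.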
